A study of Mus musculus with 30 samples.

Results

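Gene expression in the retina of *E168d2/+* mice was compared between postnatal day 21 (P21) and P10. These mice are heterozygous for a frameshift in *Crx* and were kept on a C57BL6/J background, as were all groups used here. The members are the 6 *E168d2/+* libraries, 3 of P10 and 3 of P21 (replicates A, B and C), of 30 libraries in the series, and the 12159 of 12573 listed genes with at least 5 CPM in each library of P10 or in each of P21. CPM give a gene's reads relative to all reads that the library has on genes, scaled to a common total. Each library pooled 4 retinas, 2 from a male and 2 from a female mouse, with an RNA integrity number of at least 8.0. The age change of wild-type (WT) retinas, 3 libraries at P10 and 3 at P21, and that of *E168d2neo/+* retinas, again 3 and 3, were used to see where *E168d2/+* differed. *E168d2neo/+* mice carry the same frameshift on an allele that retains a neomycin cassette in an intron and that makes less of the mutant protein. P21 WT mice were littermates of mutants, which is not stated for P10 WT mice. Different animals gave the P10 and the P21 libraries. Reads on genes, estimated from the size of the smallest CPM steps, came to 15.9 to 21.1 M in the 6 *E168d2/+* libraries.

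Rods and cones are the light-detecting cells of the retina. In the mouse they are born before the second postnatal week, build their outer segments and synapses during it, and over the same weeks the inner retina loses its last immature neurons and growing vessels. CRX is a homeodomain transcription factor that drives the genes of phototransduction in both cell types, together with NRL and NR2E3 in rods. The E168d2 frameshift removes the activating C-terminus of CRX but leaves its DNA-binding domain, so that the mutant protein acts against the normal one.

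Transcripts of the mutated gene itself were abundant at both ages. *Crx* (chr7:16451296-16465317, mm9) was listed at 2175, 2095 and 2277 CPM in the P10 *E168d2/+* replicates A, B and C and at 1830, 1611 and 1788 CPM at P21. All P21 values lay below all P10 values, and the log2 change with age was −0.33 ± 0.08 (SE, limma on log2(CPM + 0.1), FDR 0.0067), short of the 2-fold threshold. WT libraries held 1481 to 1601 CPM at P10 and 1107 to 1151 CPM at P21, so that *E168d2/+* lay above WT by 0.50 (FDR 5.9e-05) at P10 and by 0.62 (FDR 2.1e-05) at P21 on the log2 scale. Reads of the normal and the mutant allele are counted together in these values.

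Of the 6 libraries, P10 replicate C and P21 replicate B stood apart from the others of their age. P10 replicate C carried lens transcripts: the summed CPM of 10 lens genes was 46.29, 47.86 and 3906 in P10 replicates A, B and C, against 55.97, 73.83 and 97.55 at P21 and 32.65 to 61.18 in WT. The same library was also lowest for several rod and glial genes, and the part of the lens tissue in those values was not tested. P21 replicate B lay nearer to WT than its group. Among the 190 genes that were lower in P21 replicates A and C than in P21 WT by the thresholds used here, A stood at a median log2 ratio of −1.76 to WT, C at −1.43 and B at −0.63, and B lay above both others in 190 of 190. The choice of these genes by their low values in A and C favours a higher value in B, so these values are a description. Over all 12159 tested genes, not chosen in this way, B lay above both in 23.5% and below both in 47.8%. The counts of genes and list members called with age were therefore repeated without P21 replicate B and without P10 replicate C, and so were the counts of different age changes.

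Between P10 and P21, genes of rod phototransduction rose in *E168d2/+* retinas while genes of neuronal growth and of vessels fell. Of 12159 genes tested, 767 changed at least 2-fold at a false discovery rate (FDR, Benjamini-Hochberg) of 0.05 or less, 6.31% of all: 399 rose (3.28%) and 368 fell (3.03%). At the FDR alone 6089 genes passed (50.1%). The median log2 change over all genes was −0.11, and with each library centred on its median, which removes this shift, 478 rose and 286 fell. Without P21 replicate B 384 rose and 352 fell, and 361 of the 399 rises and 331 of the 368 falls were among these. Without P10 replicate C 342 rose and 360 fell, and without both libraries 325 rose and 351 fell. The groups did not overlap in 395 of the 399 rises and in 368 of 368 falls. Over all tested genes, 19.6% had every P21 library above every P10 library and 40.5% every P21 library below.

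The WT retina changed in the same direction at most of these genes. In WT, 1078 of 12203 genes changed (8.83%), 587 upward (4.81%) and 491 downward (4.02%). Of the 399 rises in *E168d2/+*, 342 also rose in WT, which is 85.7% of the *E168d2/+* list and 58.3% of the WT list. Of the 368 falls 295 also fell in WT, 80.2% and 60.1% of the lists. No gene moved in opposite directions past the thresholds. The remaining rises were 43 genes that did not pass in WT and 14 that were not tested there, and the remaining falls 55 and 18. Among 11972 genes tested in both, 10554 changed with the same sign.

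**Figure D1:**
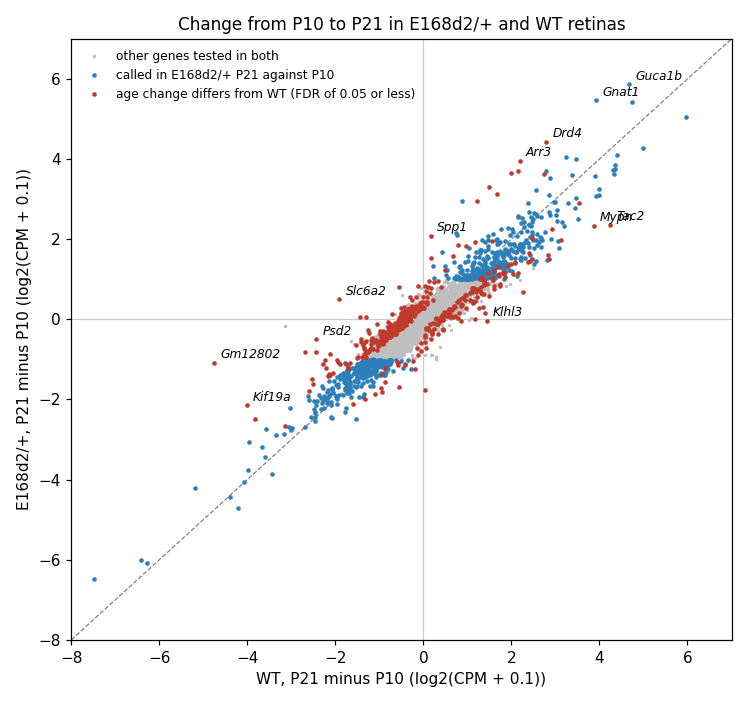
Log2 change from P10 to P21 in WT (x axis) and in *E168d2/+* (y axis), 1 point a gene, for the 11972 genes tested in both; the dashed line marks equal change, blue points are the genes called in *E168d2/+* and red points those whose age change differed between the genotypes. Most points lie along the line, with 10554 of the same sign in both.

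Among rod phototransduction genes, 10 of 19 tested rose and 0 fell, with a median log2 change of 1.01 against −0.11 for all genes, and without P21 replicate B 9 rose. In WT 9 rose, with a median of 0.95. *Gnat1*, the alpha subunit of rod transducin (chr9:107576808-107581923), was listed at 240, 191 and 73.5 CPM in P10 replicates A, B and C and at 5251, 8451 and 6523 CPM at P21. The log2 change was 5.46 ± 0.35 (SE, FDR 1.7e-06). Every P21 library stood more than an order of magnitude above every P10 library. *Gnat1* in WT went from 626 to 716 CPM at P10 up to 9788 to 10527 CPM at P21, a log2 change of 3.93.

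*Guca1b*, an activator of photoreceptor guanylate cyclase (chr17:47522342-47529916), made the largest rise of the 399 by log2 change. It was listed at 3.89, 3.53 and 3.09 CPM at P10 and at 132, 428 and 160 CPM at P21, a log2 change of 5.86 ± 0.34 (SE, FDR 8.8e-07). P21 replicate B held the highest P21 value, and without it the change in *Guca1b* was 5.34. WT held 30.8 to 36.2 CPM at P10 and 799 to 925 CPM at P21, so that *Guca1b* in *E168d2/+* had a log2 difference from WT of −3.25 at P10 (FDR 8.0e-06) and of −2.06 at P21 (FDR 0.0003). *Slc24a1*, the sodium/calcium-potassium exchanger of rods, was at 103, 91.8 and 46 CPM at P10 and at 822, 1240 and 947 CPM at P21, with a log2 change of 3.70 ± 0.26 (FDR 2.8e-06) and no overlap. *Rcvrn*, which encodes the calcium sensor recoverin, was at 60.7, 53.5 and 33.4 CPM at P10 and at 115, 513 and 165 CPM at P21. Its log2 change of 2.16 ± 0.44 (FDR 0.0023) went down to 1.53 without P21 replicate B. *Rcvrn* stayed low throughout, since WT held 547 to 565 CPM at P10 and 862 to 962 CPM at P21. In that library alone it came near the WT level of the younger age.

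The other rod genes that rose were *Guca1a* (log2 change 3.57), *Pde6a* (2.55), *Gucy2f* (1.58), *Grk1* (1.18), *Rgs9bp* (1.15) and *Gucy2e* (1.01). *Gucy2e* did not pass the fold threshold without P21 replicate B (0.68) or without P10 replicate C (0.95). The catalytic subunit gene *Pde6b* was at 1045 to 1151 CPM at P10 and 1568 to 1790 CPM at P21, a log2 change of 0.61 (FDR 0.00013) that did not reach 2-fold. Relative to WT of the same age, 8 of the 19 genes were lower at P10 and 4 at P21 (6 without P21 replicate B). The list medians were −0.91 and −0.71 (−0.83 without P21 replicate B). For replicates A, B and C they were −0.63, −0.82 and −1.14 at P10 and −0.95, −0.37 and −0.77 at P21, so the ages overlapped. The rise was smaller than in WT in 1 gene and larger in 0, and without P21 replicate B in 4 and 1. Over all 12390 genes tested against WT, 211 differed at P10 (1.7%), 68 higher (0.549%) and 143 lower (1.15%), and 209 at P21 (1.69%), 70 higher (0.565%) and 139 lower (1.12%). Whether a lower level reflects fewer rods or less RNA in each rod cannot be told apart in whole retina, and this applies to each cell type below.

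**Figure D2:**
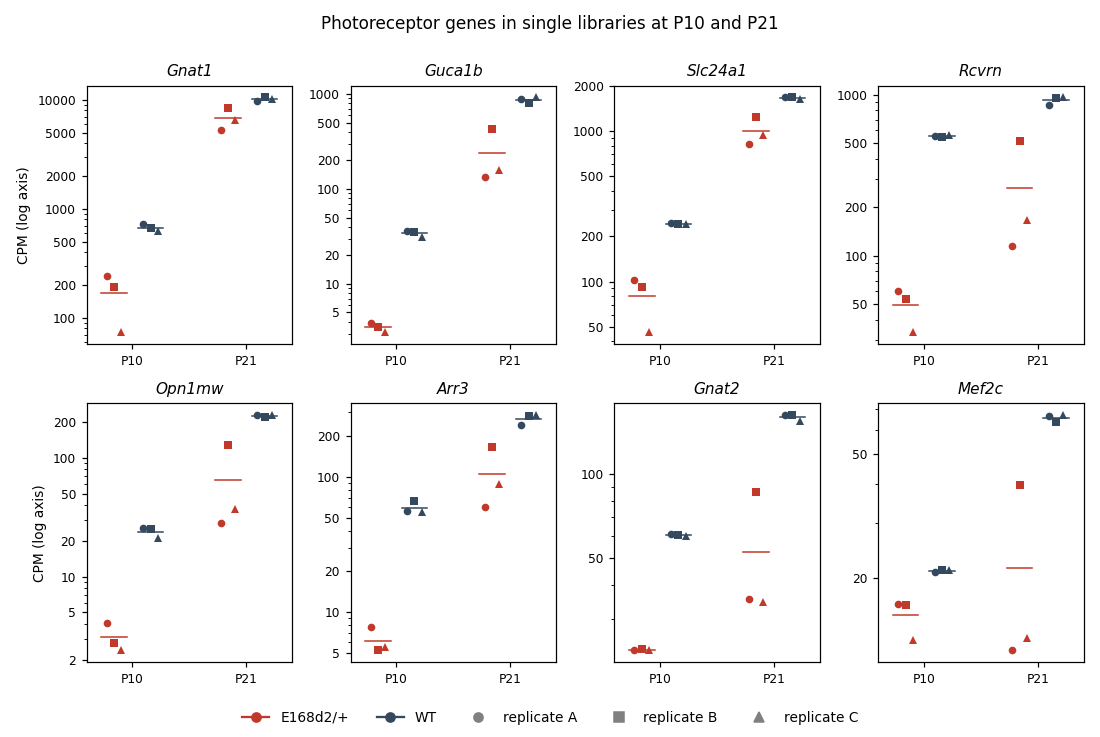
CPM (log axis) of 8 photoreceptor genes at P10 and P21 in *E168d2/+* (red) and WT (dark), with 1 point a library (circle A, square B, triangle C) and a bar at the mean. *Gnat1* and *Guca1b* climb steeply from a low P10 level, and the square of P21 replicate B sits above the other *E168d2/+* points in most panels, as for *Rcvrn* at 513 against 115 and 165 CPM.

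Cone phototransduction genes moved unevenly. Of 10 tested genes 5 rose and 1 fell, with a median of 0.97, but without P21 replicate B 3 rose and 1 fell with a median of 0.60. In WT 4 rose and 0 fell. By the FDR alone 7 were higher at P21 in *E168d2/+* and 3 lower, *Gnb3* (−1.02), *Gngt2* (−0.71) and *Cngb3* (−0.69). The summed CPM of the 11 listed genes was 1208, 1143 and 1146 at P10 and 882.8, 1335 and 932.4 at P21. Only P21 replicate B was thus above P10, while WT went from 1358 to 1373 up to 1873 to 1977. The sum includes *Gnb3*. *Opn1mw*, the M cone opsin (chrX:71372803-71396099), was at 4.08, 2.77 and 2.4 CPM at P10 and at 28.5, 130 and 36.8 CPM at P21. The log2 change was 4.05 ± 0.45 (FDR 5.4e-05), or 3.39 without replicate B, and WT went from 21.1 to 25.9 CPM up to 222 to 229 CPM. At P21 the *Opn1mw* level in replicates A and C had thus just passed that of WT at P10. *Arr3*, cone arrestin (chrX:97800836-97813832), was at 7.73, 5.23 and 5.55 CPM at P10 and at 59.3, 165 and 89 CPM at P21. Its log2 change of 3.95 ± 0.30 (FDR 4.6e-06) exceeded the 2.19 of WT by 1.76 (FDR 0.019 for the difference), from a P10 level with a log2 difference from WT of −3.25. The difference in *Arr3* did not pass without *E168d2/+* P10 replicate B and without WT P10 replicate B.

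Other cone genes depended on P21 replicate B to a larger extent. *Pde6h*, an inhibitory phosphodiesterase subunit of cones, was at 2.99, 2.33 and 1.71 CPM at P10 and at 9.53, 54.2 and 11.9 CPM at P21, a log2 change of 2.95 ± 0.52 (FDR 0.001), or 2.17 without B. *Gnat2*, cone transducin, was at 23.1, 23.3 and 23.2 CPM at P10 and at 35.5, 86.7 and 34.5 CPM at P21. Its log2 change of 1.02 (FDR 0.012) fell to 0.59 without B, as that of the S cone opsin gene *Opn1sw* went from 1.0 to 0.60, and both then missed the fold threshold. WT *Gnat2* held 60.0 to 60.8 CPM at P10 and 156 to 164 CPM at P21. *Gnb3*, the transducin beta subunit of cones that bipolar cells also use, fell from 853, 796 and 800 CPM to 386, 397 and 427 CPM, a log2 change of −1.02 (FDR 2.1e-06). Against WT, 6 of the 10 genes were lower at P10 and 7 at P21, with medians of −1.27 and −1.38. The cone channel gene *Cngb3* stood the other way, with log2 differences from WT of 1.57 at P10 and 1.47 at P21 and an age change of −0.69.

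Genes of the visual cycle changed in 4 of 7 tested and those of the outer segment and cilium in 2 of 21. *Rdh8* and *Rdh12*, retinol dehydrogenases, and *Abca4*, the retinoid transporter of the disc rim, rose by log2 changes of 1.42, 1.02 and 1.10. *Crabp1*, a retinoic acid binding protein, went from 39.9, 40.2 and 37.9 CPM to 9.17, 8.96 and 8.47 CPM, a log2 change of −2.14 (FDR 2e-07) beside −2.11 in WT. That made 3 of 7 visual cycle genes that rose and 1 that fell, with a median of 0.45, against 0 and 1 by both thresholds in WT with a median of 0.46. Without P21 replicate B *Rdh12* was at 0.74 and did not pass, and without P10 replicate C *Rdh12* (0.84) and *Abca4* (0.97) did not. Among 21 tested genes of the outer segment and cilium, 2 rose, with a median of 0.40 (0.27 in WT, where 2 rose as well). *Fscn2*, a photoreceptor actin-bundling protein, went from 3.65, 3.09 and 2.61 CPM to 13.8, 32.6 and 15.4 CPM (log2 change 2.59, FDR 4.4e-05). *Aipl1*, a chaperone of phosphodiesterase, went from 195, 167 and 130 CPM to 517, 604 and 627 CPM (1.84, FDR 3.4e-06). The rise of *Aipl1* was larger than that of WT (0.96) by 0.88 (FDR 0.0088), from a P10 level below WT by a log2 difference of −1.50.

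Transcription factors of photoreceptors fell more often than they rose. Of 18 tested genes 1 rose and 3 fell, with a median of −0.42, against 2 and 4 in WT with a median of −0.33. *Esrrb*, an orphan nuclear receptor of rods, rose from 50.5, 47 and 22.4 CPM to 262, 331 and 261 CPM, a log2 change of 2.91 (FDR 1e-05). *Prdm1*, which separates photoreceptor from bipolar fate, fell from 178, 186 and 235 CPM to 40.9, 39 and 47.4 CPM (−2.23, FDR 4.4e-07). *Nr2e3* fell from 1511, 1483 and 1584 CPM to 768, 621 and 802 CPM (−1.07), and without P21 replicate B the change of −0.96 missed the threshold. *Rxrg*, a retinoid X receptor of cones, fell from 33, 33.7 and 29.7 CPM to 9.53, 8.63 and 12 CPM, a log2 change of −1.68 (FDR 4.7e-06). WT *Rxrg* held 11 to 14 CPM at P10 and 8.04 to 10 CPM at P21, so its fall of −0.56 was smaller by −1.12 (FDR 0.0065 for the difference). *Rxrg* in *E168d2/+* was thus above WT at P10 (1.31) and near it at P21 (0.19).

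*Nrl*, the rod-determining factor, was at 1129 to 1168 CPM at P10 and at 1152 to 1245 CPM at P21, groups that overlapped (log2 change 0.04, FDR 0.63). *Mef2c*, a MADS box factor, was at 16.5, 16.3 and 12.6 CPM at P10 and at 11.7, 39.8 and 12.8 CPM at P21. WT *Mef2c* rose from 20.8 to 21.2 CPM up to 63.7 to 66.8 CPM. In *E168d2/+* its log2 change was 0.27 (FDR 0.57), below the 1.64 of WT by −1.37 (FDR 0.11). Without P21 replicate B the difference for *Mef2c* was −1.93 (FDR 2.3e-06). A single library decides whether this gene passed.

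Genes of the photoreceptor synapse rose in 5 of 16 tested, with 0 falls and a median of 0.46, and in 4 of 16 in WT with a median of 0.39. Without both P21 replicate B and P10 replicate C 2 rose. *Mpp4*, a scaffold of the photoreceptor terminal, rose from 180, 173 and 131 CPM to 433, 553 and 465 CPM, a log2 change of 1.59 (FDR 5.2e-06) that exceeded the 0.66 of WT by 0.92 (FDR 0.0048). *Cabp4*, a calcium-binding regulator of the terminal's calcium channel, went from 14.6, 13.1 and 9.07 CPM to 21.1, 80 and 32 CPM (1.65, FDR 0.005). Here replicate B was again highest. The others were *Cplx4*, a complexin of ribbon synapses (1.39), *Slc17a7*, the vesicular glutamate transporter (1.18), and *Pacsin1* (1.15).

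To show the sequence before the start sites of genes named above and below, the 250 bases upstream are printed for the photoreceptor-list genes with the largest rises and for the genes with the largest falls that had a RefSeq entry. The windows are from RefSeq on GRCm38.p6, which is another build than the mm9 of the gene positions. Capitals mark TAATCC or TAATCT, the core that CRX-type homeodomains prefer, and TGCTGA, part of the element bound by NRL, each on either strand. No match overlaps another in the windows printed.
Opn1mw (chrX:74127216-74127465, + strand): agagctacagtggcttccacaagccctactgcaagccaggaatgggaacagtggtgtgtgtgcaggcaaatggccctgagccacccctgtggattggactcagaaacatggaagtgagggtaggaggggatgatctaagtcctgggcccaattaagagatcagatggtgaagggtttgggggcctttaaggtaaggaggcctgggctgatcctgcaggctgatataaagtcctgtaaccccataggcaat
Arr3 (chrX:100605247-100605496, + strand): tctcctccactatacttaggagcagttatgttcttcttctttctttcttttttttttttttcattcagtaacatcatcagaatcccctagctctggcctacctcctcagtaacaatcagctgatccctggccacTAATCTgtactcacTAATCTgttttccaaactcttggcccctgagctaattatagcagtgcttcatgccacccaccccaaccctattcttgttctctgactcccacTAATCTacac
Slc24a1 (chr9:64951621-64951870, − strand): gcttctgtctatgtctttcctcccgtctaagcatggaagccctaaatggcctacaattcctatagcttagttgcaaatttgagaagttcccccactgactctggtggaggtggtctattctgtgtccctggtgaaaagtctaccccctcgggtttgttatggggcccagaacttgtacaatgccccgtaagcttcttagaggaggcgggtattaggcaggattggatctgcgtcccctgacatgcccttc
Gm11546 (chr11:94798212-94798461, − strand): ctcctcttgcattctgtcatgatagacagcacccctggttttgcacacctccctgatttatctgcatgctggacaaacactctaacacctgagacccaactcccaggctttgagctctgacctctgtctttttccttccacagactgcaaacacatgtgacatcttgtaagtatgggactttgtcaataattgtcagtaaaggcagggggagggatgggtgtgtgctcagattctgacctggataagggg
AA623943 (chr11:94817652-94817901, − strand): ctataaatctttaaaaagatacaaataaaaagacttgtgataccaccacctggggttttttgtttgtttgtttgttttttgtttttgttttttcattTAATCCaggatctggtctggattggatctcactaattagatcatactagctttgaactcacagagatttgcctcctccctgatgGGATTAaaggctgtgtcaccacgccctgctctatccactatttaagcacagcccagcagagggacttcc

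The window of *Arr3* held 3 copies of TAATCT, starting 116, 102 and 10 bases before the start site, and that of *AA623943* held TAATCC on each strand at 153 and 69 bases. The *Opn1mw*, *Slc24a1* and *Gm11546* windows held none of these letters. Over all 32851 windows of this length 12.8% held TAATCC or TAATCT, and of the tested genes, 8618 of 12159 with a window, 9.03% did. Of the rises 262 had a window and 44 held the core (16.8%). Of the falls 247 had one and 25 held it (10.1%). Among 70 photoreceptor-list genes with a window 31 held it (44.3%), and among the 19 of these that rose 9 did (47.4%). TGCTGA was in 17.2% of the windows of rises, 13% of those of falls and 12% of those of tested genes. These are counts of letters and were not tested.

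Genes of growing neurons fell together, close to the course of WT. Of 19 tested genes 0 rose and 16 fell, with a median log2 change of −1.69 (14 fell without P21 replicate B and 14 without P10 replicate C), and in WT 16 fell with a median of −1.54. *Tubb2b*, a tubulin of immature neurons, went from 188, 215 and 264 CPM to 18, 14.8 and 16 CPM, a log2 change of −3.76 ± 0.12 (FDR 5.5e-08) beside −3.99 in WT. *Dcx*, which encodes the microtubule protein doublecortin, went from 71.3, 82.2 and 110 CPM to 17.2, 18.2 and 16.9 CPM (−2.30, FDR 1e-06). *Sox4*, a factor of neuronal differentiation, went from 102, 108 and 94.7 CPM to 16.6, 15.1 and 16 CPM (−2.67). In each of the 3 the groups were far from overlapping. *Mex3a* (−3.19), *Cd24a* (−2.87), *Nnat* (−2.68), *Sox11* (−2.22), *Marcksl1* (−1.91), *Gap43* (−1.80), *Tmsb10* (−1.69) and *Dpysl5* (−1.44) fell as well. Of 8 cell cycle genes 1 fell, with a median of −0.74, against 5 of 8 in WT with a median of −1.11. That gene was *Mki67*, a marker of dividing cells, at 10.2, 9.84 and 13.7 CPM at P10 and 0.618, 0.656 and 0.451 CPM at P21 (−4.07, FDR 4.5e-07). By the FDR alone 6 cell cycle genes were lower at P21 and 1 was higher, *Ccna2* (0.55). *Ccnd1* (−0.99), *Mcm6* (−0.99) and *Mcm7* (−0.96) fell just short of 2-fold. The age change differed from WT in 0 of the 8 genes, and in 1 without P21 replicate B.

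The 4 largest falls by log2 change came from neighbouring genes on chromosome 11. *Gm11545*, *Tmem92*, *Gm11546* and *AA623943* lie in a row on the − strand within chr11:94616451-94674662 (58 kb, mm9). The mm9 annotation types *Gm11545*, *Gm11546* and *AA623943* as pseudogenes and lists *Tmem92* as *Tmem92-ps*, typed as protein coding. *Tmem92* was at 29.7, 30.1 and 45.5 CPM at P10 and at 0.257, 0.164 and 0.501 CPM at P21, which stand for 5, 3 and 10 reads. Its summed reads gave a 112-fold fall (95% counting interval 71 to 190). *Gm11546* went from 14.3, 12.9 and 20.7 CPM to 0.103, 0.109 and 0.2 CPM, a 116-fold fall (58.6 to 269), and *AA623943* from 13.4, 12.6 and 21.1 CPM to 0.154, 0.164 and 0.1 CPM, a 114-fold fall (57.4 to 264). For *Gm11545* the fall was 61.7-fold (29.7 to 154). These intervals are exact and cover counting error only. The genes are partly alike in sequence: 12.6% of the 50-base windows of *Gm11546* occur in *AA623943*, so the split of reads among them is uncertain. *Tmem92*, *Gm11546* and *AA623943* were listed at 0 in all 3 P21 WT libraries, which allows up to 3 reads in each.

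Among the other large falls, *Aplnr*, the apelin receptor of growing endothelium (chr2:84976517-84980079), went from 19.5, 24.9 and 18.9 CPM to 0.669, 0.71 and 0.752 CPM, a log2 change of −4.70 ± 0.16 (FDR 7.9e-08). *H19*, an imprinted noncoding RNA, went from 33.1, 41.2 and 38.5 CPM to 3.14, 1.31 and 1.05 CPM (−4.43). *Fabp7*, a fatty acid binding protein of progenitors and glia, went from 76.5, 72.5 and 103 CPM to 7.31, 3.06 and 3.86 CPM (−4.20). *Fabp7* was above WT at both ages, by 1.07 at P10 and 2.06 at P21 on the log2 scale. *Slc27a2*, a fatty acid transporter, went from 18.1, 19.7 and 29.7 CPM to 1.75, 1.15 and 1.4 CPM (−3.86) and was likewise above WT, by 1.87 and 1.44.

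Vessel genes fell in 8 of 12 tested, with 0 rises and a median of −1.18, against 5 of 12 in WT with a median of −0.72. Beside *Aplnr*, its ligand *Apln* fell by a log2 change of −1.95, the endothelial cadherin *Cdh5* by −1.66, the tight junction gene *Cldn5* and the adhesion gene *Mcam* by −1.56 each and the VEGF receptor *Kdr* by −1.21. *Cldn5* was at 24.6, 25.4 and 21.7 CPM at P10 and at 7.78, 7.27 and 9.12 CPM at P21, without overlap. Its fall exceeded that of WT (−0.86) by −0.70 (FDR 0.022), as did those of the pericyte gene *Rgs5* by −0.56 (FDR 0.025) and of the endothelial receptor *Eng* by −0.68 (FDR 0.049). These differences did not pass in 6, 6 and 10 of the 12 fits that left out a library. The summed CPM of the list was 695.4, 715.9 and 664.2 at P10 and 294.9, 307.3 and 316 at P21, with 604 to 646.4 and 295.5 to 313.3 in WT, so that the sums came out alike at P21. Gene by gene, the list's median log2 difference from WT was 0.13 at P10 and −0.25 at P21. Of the 12 genes 0 passed both thresholds against WT at either age. Of 16 extracellular matrix genes 4 fell and 1 rose, with a median of −0.25: the basement membrane collagens *Col4a1* (−1.36) and *Col4a2* (−1.05), *Fbn2* (−1.28) and *Bgn* (−1.33) fell, and *Fbn1* (1.76) rose. In WT 1 fell and 1 rose.

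Microglial genes fell in 3 of 7 tested (median −0.89, and 2 of 7 in WT): *Cx3cr1*, the fractalkine receptor, from 13.3, 13.9 and 12.1 CPM to 5.61, 5.3 and 5.61 CPM (−1.23), and the complement genes *C1qc* (−1.31) and *C1qb* (−1.11). Blood genes varied among libraries. Their summed CPM was 121.7, 129.7 and 104.4 at P10 and 70.5, 131 and 29.96 at P21. With all libraries 0 of 5 passed both thresholds in limma (1 was lower by the FDR alone) at a median of −0.88, and without P21 replicate B 5 fell. The part of residual blood in the vessel and microglial values was not tested.

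Genes of the Mueller glia rose in 4 of 11 tested, with 0 falls and a median of 0.76, against 6 of 11 in WT with a median of 1.04. By the FDR alone 7 were higher and 2 lower, *Slc1a3* (−0.82) and *Vim* (−0.34), both short of a 2-fold fall. *Glul*, glutamine synthetase, went from 1011, 919 and 545 CPM to 2518, 2118 and 2225 CPM, a log2 change of 1.52 (FDR 0.00011). *Clu*, clusterin, went from 161, 165 and 115 CPM to 610, 580 and 532 CPM (1.98), and *Kcnj10*, the potassium channel of glial endfeet, changed by 1.19. *Aqp4*, a water channel, went from 46.7, 43 and 27.2 CPM to 106, 109 and 94.2 CPM (1.44), a smaller rise than the 2.38 of WT by −0.95 (FDR 0.036), which did not pass in 8 of 12 fits without a library. P10 replicate C, the library with lens transcripts, was lowest for *Glul*, *Clu* and *Aqp4*. Of the 11 genes 1 was higher than WT at P10 by both thresholds, *Aqp4*, with a log2 difference of 1.19 (0.24 at P21). The differences of *Glul* and *Clu* from WT were 0.76 and 0.64 at P10, short of 2-fold, and 0.07 and 0.12 at P21.

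Among genes of stress and reactive glia 2 of 7 rose, with a median of 0.65, and 1 of 7 in WT with a median of 0.55. Of the 15 genes in this list only these 7 were listed, and 6 were higher at P21 by the FDR alone. Their summed CPM was 130.2 to 143.7 at P10 and 173.3 to 293.1 at P21, with 109.2 to 116.5 and 139.9 to 150 in WT. Against WT of the same age 0 passed both thresholds at P10 and 1 was higher at P21, with medians of 0.53 and 0.35. *C4b*, a complement component, went from 0.569, 0.189 and 0.373 CPM (12, 3 and 7 reads) to 11, 8.47 and 5.91 CPM, a 21.4-fold rise of summed reads (95% counting interval 14 to 34.4). WT *C4b* went from 0.144 to 0.188 CPM up to 3.18 to 11.7 CPM. *Cebpd*, a factor of the acute phase response, rose by 1.03, or 0.97 without P10 replicate C. Of 5 tested genes of antigen presentation and interferon response 2 rose, *Ifit3* by 2.51 and *H2-K1* by 1.22 (1 of 5 in WT).

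Genes of inner retinal neurons changed in small numbers. ON bipolar signalling genes rose in 2 of 12, the G protein subunit genes *Gnb5* (1.73) and *Gng13* (1.69), with a list median of 0.16 (2 of 12 in WT, 0.41). Horizontal cell genes fell in 3 of 7, *Angpt2* (−1.39), *Ndrg1* (−1.33) and *Bsnd* (−1.02), at a median of −0.59. *Bsnd* missed the threshold without P10 replicate C (−0.99). By the FDR alone 5 genes of the list were lower and 2 higher, *Calb1* (0.92) and *Nebl* (0.88), both short of 2-fold. In WT 2 rose and 3 fell by both thresholds, with a median of −0.71. For amacrine cells 1 of 9 rose (*Stc1*, 1.19), and for ganglion cells 0 of 11 passed both thresholds in limma (4 were higher and 3 lower by the FDR alone), with a median of −0.11 that became 0.00 once libraries were centred on their medians. No other list changed the sign of its median under that centring. Of 12 mitochondrially encoded genes 1 rose (*mt-Atp8*, 1.13), at a median of 0.43 that went down to 0.074 under quantile normalization, where *mt-Nd4* and *mt-Nd5* changed sign.

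Pigment epithelium genes were uneven between libraries, with summed CPM of 239.3, 397.5 and 161.5 at P10 and 816, 469.3 and 182.6 at P21. The list rose in 2 of 9 tested, *Lrat* (1.43) and *Rpe65* (1.38), both enzymes of the visual cycle outside photoreceptors, with a median of 0.88 (6 of 9 in WT, 1.92). How much attached pigment epithelium each library held was not tested. Of 3 tested myelin genes 0 passed both thresholds in limma (1 was lower by the FDR alone), and 1 lens gene was tested, which did not pass.

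**Figure D3:**
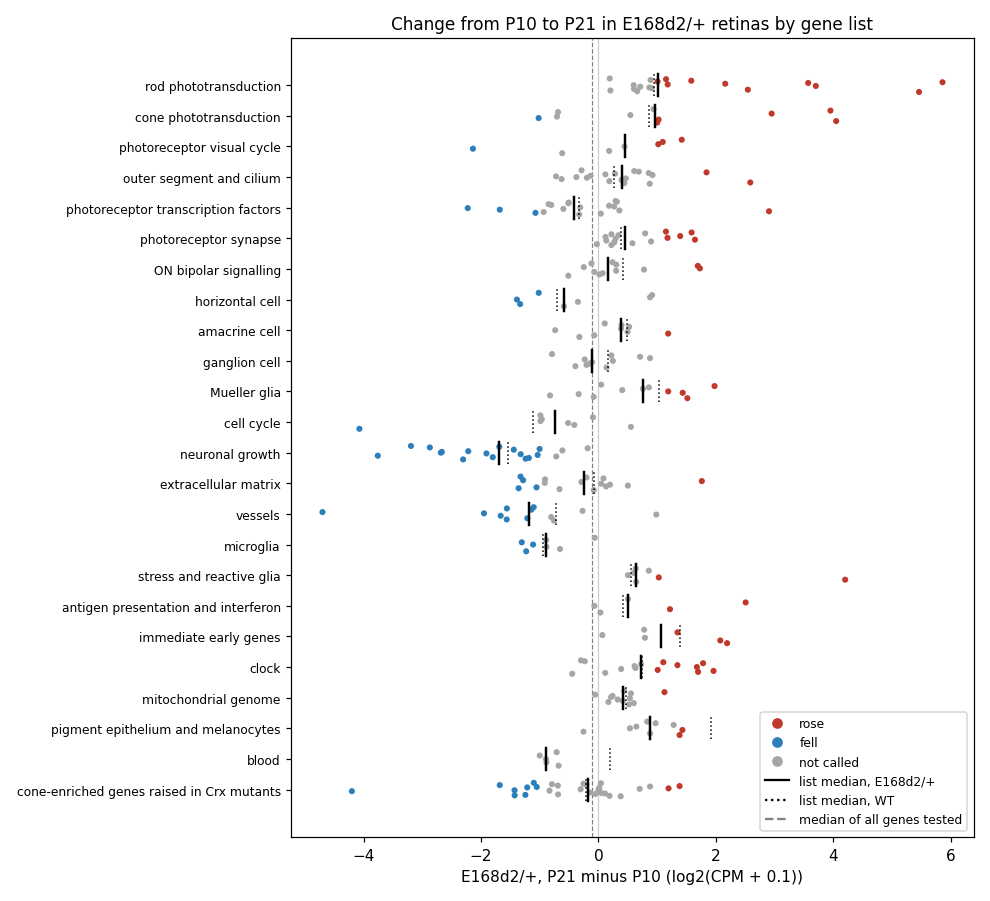
Log2 change from P10 to P21 in *E168d2/+* for each tested member of 24 gene lists (red rose, blue fell, grey not called), with a solid bar at the *E168d2/+* median, a dotted bar at the WT median and a dashed line at the median of all genes, −0.11. Rod genes spread widely to the right and neuronal growth genes lie to the left, at a median of −1.69.

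A list of cone-enriched genes that the study found raised in *Crx* mutants was followed with age. The study chose it on these same libraries, so its level against WT is not independent evidence. Of 30 tested genes 2 rose and 8 fell from P10 to P21, with a median of −0.17 (4 and 5 in WT), and without P21 replicate B 1 rose and 6 fell. The falls were *Fabp7* (−4.20), *Rxrg* (−1.68), the nicotinic receptor gene *Chrnb4* (−1.43), *H6pd* (−1.43), the clathrin light chain gene *Cltb* (−1.24), *Myocd* (−1.21), *Xk* (−1.10) and *Peg10* (−1.05), and the rises *Rpe65* (1.38) and the frizzled-related gene *Mfrp* (1.20). *Rpe65* and *Mfrp* are also genes of the pigment epithelium. The list's median log2 difference from WT was 0.97 at P10 and 0.56 at P21, with 12 genes higher at P10 and 8 at P21.

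The starting points and end points of the called genes were compared with WT of the same age. Of the 399 rises 53 were below WT at P10 and 49 at P21: 35 at both ages, 18 at P10 alone and 14 at P21 alone. Above WT were 16 at P10 and 9 at P21. Of the 368 falls 17 were above WT at P10 and 22 at P21, 11 at both. Choosing genes by their *E168d2/+* change favours low P10 values among rises and high P10 values among falls, so these counts are a description. The median log2 change of the rises was 1.46 in *E168d2/+* and 1.66 in WT, and of the falls −1.31 and −1.38. Counted the other way, from genes called in the WT libraries, 537 of the 587 WT rises were tested in *E168d2/+* and 342 of these rose (63.7%), with medians of 1.42 in WT and 1.16 in *E168d2/+*. Of the 491 WT falls 459 were tested and 295 fell (64.3%), with medians of −1.32 and −1.14. Choosing genes by their WT change favours a larger value in WT, so these medians are given without a test.

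The age change of *E168d2/+* itself differed from that of WT in 443 of 12390 genes at an FDR of 0.05 (3.58%), tested as an interaction in 1 fit of 12 libraries. In 289 genes the *E168d2/+* change was more positive (2.33%) and in 154 more negative (1.24%). With libraries centred on their medians 183 were more positive and 259 more negative. The difference was at least 2-fold in 52 genes, 33 and 19. The count depended on single libraries, with 894 genes without P21 replicate B and 846 without P10 replicate C, and 127 of the 443 genes (86 and 41) passed without each of the 12 libraries in turn and under both other scalings. Among the WT rises tested in *E168d2/+*, 65 rose less than in WT and 10 more, and among the WT falls 65 fell less and 3 more. These genes were chosen by their WT change, which favours a smaller change in *E168d2/+*. Among genes chosen by their *E168d2/+* change, 28 of the 399 rises rose less than in WT and 17 more, and 22 of the 368 falls fell less and 19 more. That choice in turn favours a larger change in *E168d2/+*.

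**Figure D4:**
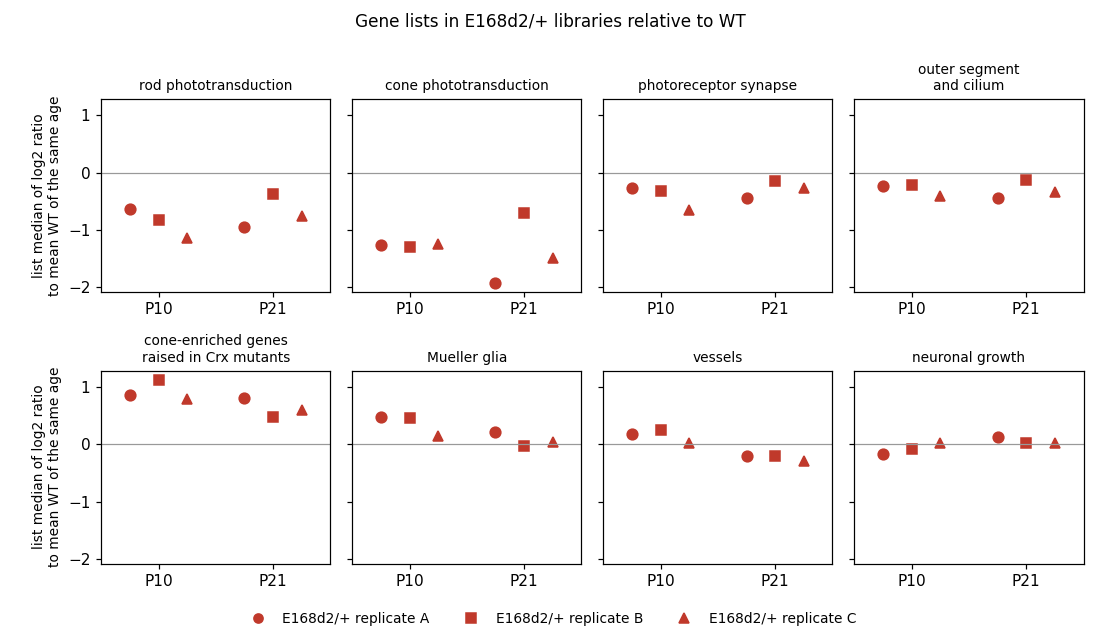
Median log2 ratio to the WT mean of the same age for 8 gene lists, 1 point for each *E168d2/+* library at P10 and P21. For cone phototransduction the P21 libraries lay at −1.93 (A), −0.72 (B) and −1.50 (C), with P21 replicate B nearest to WT, while the P10 libraries lay between −1.30 and −1.25.

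Some genes fell less in *E168d2/+* than in WT, or had no called fall. *Gm12802*, a noncoding transcript (chr4:106799218-106808857), was at 42.8, 40.4 and 41.4 CPM at P10 and at 21.5, 14.6 and 23.7 CPM at P21, a log2 change of −1.08. WT *Gm12802* went from 39.4 to 39.7 CPM down to 1.2 to 1.58 CPM (−4.76), and the difference of 3.67 had an FDR of 4.3e-07. *Kif19a*, a kinesin of cilia, went from 206, 200 and 211 CPM to 50.9, 33.6 and 58.5 CPM (−2.14), while WT went from 213 to 236 CPM down to 13.7 to 14.4 CPM. That difference was 1.87 (FDR 0.00023). At P10 neither gene differed much from WT, with log2 differences of 0.07 for *Gm12802* and −0.15 for *Kif19a*. *Slc6a2*, the noradrenaline transporter, was at 6.92, 6.18 and 11.1 CPM at P10 and at 12.5, 8.2 and 13.2 CPM at P21, groups that overlapped, against 5.49 to 6.76 and 1.3 to 1.88 CPM in WT (difference 2.40, FDR 0.0015).

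Other genes differed at P10 and less so at P21. *Psd2* was at 53.4, 53.7 and 51.7 CPM at P10 and at 37.4, 41.3 and 34.4 CPM at P21, while WT went from 256 to 266 CPM down to 41.3 to 55 CPM (difference 1.94, FDR 1.5e-06). *Spp1*, osteopontin, rose from 2.37, 3.22 and 5.12 CPM to 16.4, 14.4 and 13.7 CPM (2.09) and reached the level that WT held at both ages, 12.7 to 15.5 and 14.7 to 17.5 CPM (difference 1.91, FDR 0.0027). *Drd4*, the D4 dopamine receptor, rose from 7.45, 4.6 and 3.63 CPM to 89.1, 127 and 116 CPM (4.43 ± 0.22, FDR 4.5e-07), more than in WT (2.79) by 1.64 (FDR 0.0066). At P10 *Drd4* lay below WT by a log2 difference of −2.49 and at P21 of −0.86. *Pax7*, a homeobox factor, was at no more than 0.126 CPM in any *E168d2/+* library of either age. WT *Pax7* was at 16.5 to 17.6 CPM at P10 and 0.128 to 0.25 CPM at P21. No fold is given for *E168d2/+*, since both ages were at or under 3 reads a library.

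In the other direction, *Klhl3*, an adapter of a ubiquitin ligase, was at 11.5, 13.2 and 11.4 CPM at P10 and 10.3, 15.8 and 9.62 CPM at P21, with overlap (−0.04, FDR 0.85). WT *Klhl3* went from 10.4 to 13.3 CPM up to 30.5 to 31.4 CPM, and the difference was −1.48 (FDR 0.0027). *Tac2*, the neurokinin B precursor, rose from 2.28, 1.77 and 1.49 CPM to 8.29, 12.4 and 9.12 CPM (2.37) and in WT from 0.791 to 1 CPM up to 18.3 to 20.7 CPM, a difference of −1.88 (FDR 0.0019). Among rod genes *Rgs9bp*, an anchor of the transducin shut-off complex, rose from 240, 223 and 191 CPM to 445, 571 and 444 CPM, by 1.15 against 1.82 in WT (difference −0.66, FDR 0.019). At P10 *Rgs9bp* did not pass against WT (−0.04, FDR 0.78), and at P21 the log2 difference was −0.71 (FDR 0.00024).

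**Figure D5:**
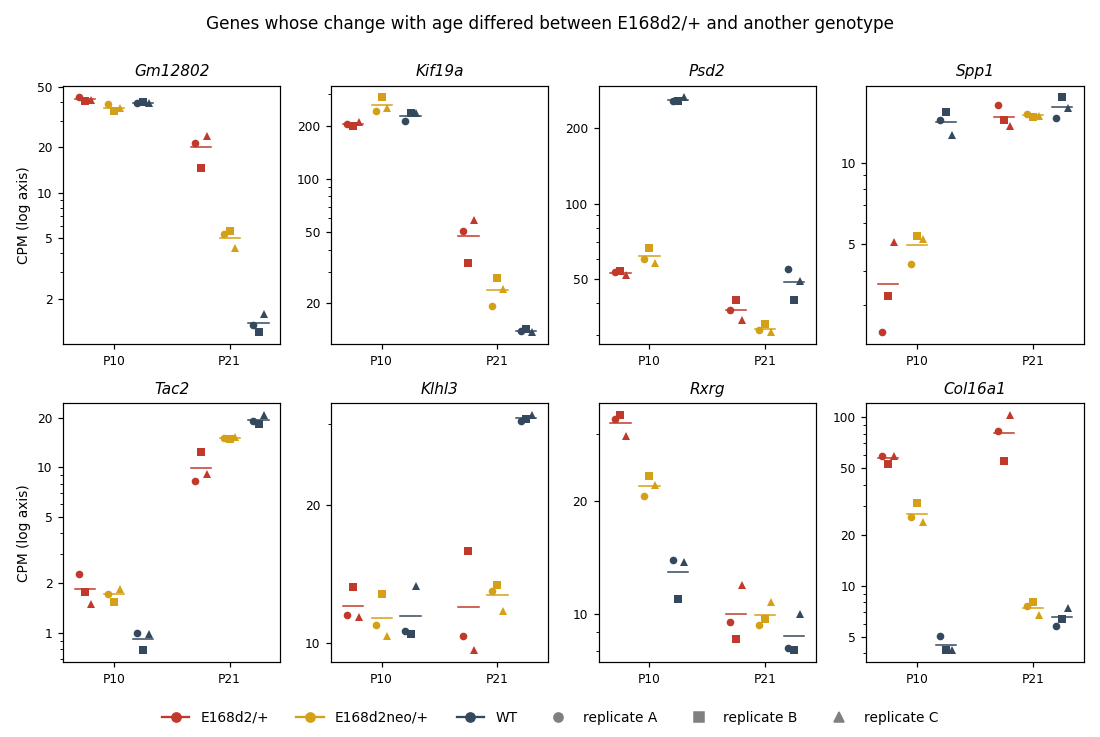
CPM (log axis) at P10 and P21 of 8 genes whose age change in *E168d2/+* differed from WT or from *E168d2neo/+*, in *E168d2/+* (red), *E168d2neo/+* (yellow) and WT (dark), with 1 point a library (circle A, square B, triangle C) and a bar at the mean. *Gm12802* drops to 1.2 to 1.58 CPM in WT and to 14.6 to 23.7 CPM in *E168d2/+*, and *Klhl3* reaches 30.5 to 31.4 CPM at P21 in WT against 9.62 to 15.8 CPM in *E168d2/+*.

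Against *E168d2neo/+* the age change differed in 135 of 12320 genes (1.1%), 97 more positive (0.787%) and 38 more negative (0.308%). Of the 399 rises and 368 falls, 342 and 304 were also called in *E168d2neo/+*. That group has a library with lens transcripts too: *Cryaa* was at 5304 CPM in P21 replicate C and at 1.45 and 2.62 CPM in the others, and without *E168d2/+* P21 replicate B 829 genes differed. *Col16a1*, a fibril-associated collagen, was at 58.9, 53.2 and 59.3 CPM at P10 and 83.5, 55 and 103 CPM at P21 in *E168d2/+*, groups that overlapped, and at 23.9 to 31.3 and 6.73 to 8.04 CPM in *E168d2neo/+* (difference 2.28, FDR 0.00093). In WT *Col16a1* held 4.17 to 5.08 and 5.83 to 7.38 CPM, so that *E168d2neo/+* came near WT at P21 and *E168d2/+* did not. *Obox6* was at 0.694 to 1.42 CPM at P10 and 1.3 to 1.75 CPM at P21 in *E168d2/+*, and at 28.8 to 34.4 and 3.38 to 9.98 CPM in *E168d2neo/+*. *Obox6* was thus under 5 CPM in all *E168d2/+* libraries and was tested only through its level in *E168d2neo/+* P10. This gene lies beside *Crx* (chr7:16418595-16425027), on the chromosome that carries the cassette in *E168d2neo/+*. The part of the cassette or of the surrounding locus in the *Obox6* values was not tested. *Hk2*, the hexokinase of photoreceptor glycolysis, rose from 25.3, 21.1 and 23.2 CPM to 88.6, 191 and 124 CPM in *E168d2/+*, less than in *E168d2neo/+* by −1.44 (FDR 0.039), a difference that did not pass in 9 of 12 fits without a library.

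Rises outside the lists were also large. *Kcnj14*, an inwardly rectifying potassium channel, went from 5.41, 3.72 and 1.97 CPM to 100, 224 and 149 CPM, a log2 change of 5.41 ± 0.34 (FDR 1.4e-06) beside 4.73 in WT. *Sec1* went from 0.142, 0.252 and 0.427 CPM (3, 4 and 8 reads) to 11.1, 10.8 and 13.2 CPM, a 43.5-fold rise of summed reads (95% counting interval 26.2 to 78.2). *Fam107a* (4.27), *Agxt2l1*, a phospho-lyase of ethanolamine phosphate (4.11), and *Gramd2* (4.0) followed. These last 3 genes and *Kcnj14* were chosen among rises without overlap, so their lack of overlap is no further result. Their age change did not pass a test of difference from WT (FDR 0.34 to 0.72).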

How the data were processed

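The authors used TopHat2 2.0.5 for alignment of single 42-base reads to mm9 and HTSeq 0.6.1p1 for counting, and deposited CPM relative to a library's reads on genes. The labels name ribosomal depletion, the study's methods poly(A) selection. The 32 columns of the authors' edgeR 3.6.8 comparisons were not used. At the estimated depth 3 reads, the limit for a listed 0, were 0.142 to 0.189 CPM, for counting error only.

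Values were taken as log2(CPM + 0.1), which understates the change of low genes, and tested with limma 3.58.1 (R 4.3.3), two-sided, with a variance trend and Benjamini-Hochberg adjustment over all genes with at least 5 CPM in all 3 libraries of a group. A call needed an FDR of 0.05 or less and a 2-fold change, and differences between age changes the FDR alone. P-values measure the spread between these pools. The tests were also run on simulated reads with known changes. These held no library that stood apart, so they cannot show how P21 replicate B and P10 replicate C affect the differences from WT.

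Named genes are list members, the 10 largest rises and 10 largest falls without overlap that also passed without P21 replicate B, and the 8 (WT) or 5 (*E168d2neo/+*) largest differences of each sign. *Cryaa* was named after its values were seen. Members and lists were chosen with earlier results of these data known. A gene is not reported here. Alternatives were other pseudocounts, filters and scalings, a block, each library left out, and voom on estimated reads. Gene positions are mm9 (GENCODE vM1).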

Additional observations from a re-analysis of the deposited data

Results flagged for a closer look

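The results listed here are log2 differences between the age change of *E168d2/+* and that of WT or *E168d2neo/+* that passed an interaction test (limma, FDR 0.05). No explanation was tested for any of them.

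Against WT, the most positive differences were those of *Pax7* (5.35), *Gm12802* (3.67), *Slc6a2* (2.40), *Akr1b8* (2.08), *Psd2* (1.94), *Spp1* (1.91), *Gm1614* (1.87) and *Kif19a* (1.87), and each passed without any 1 of the 12 libraries. The value of *Pax7* rests on its fall in WT and on *E168d2/+* libraries with no more than 2 reads each, so it depends on the 0.1 CPM added and is no measured fold. *Akr1b8*, an aldo-keto reductase, was at 2.7, 1.51 and 1.71 CPM at P10 and at 10, 6.89 and 12 CPM at P21, while WT stayed between 0.878 and 1.5 CPM. *Akr1b8* was thus tested only through its level in *E168d2/+* P21, and *Pax7* only through its level in WT P10. Passing without single libraries is no further support for *Pax7* and *Akr1b8*. The most negative differences were those of *Tac2* (−1.88), *mmu-mir-689-2* (−1.80), *Traf3ip3* (−1.75), *Gm16055* (−1.58), *Cyp4f41-ps* (−1.57), *Mypn* (−1.53), *Klhl3* (−1.48) and *Slco1a4* (−1.35). Of these *Tac2*, *Gm16055* and *Klhl3* passed without each library, while *mmu-mir-689-2* was lost in 10 of 12 such fits, *Traf3ip3*, *Mypn* and *Slco1a4* in 9 and *Cyp4f41-ps* in 3.

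Of the genes with the largest rises, *Drd4* rose more than in WT (1.64). Members of the lists had smaller differences in the main. More positive than WT were *Arr3* (1.76), *Mpp4* (0.92), *Aipl1* (0.88), *Chrnb4* (0.74), *Lrit1* (0.70), *Crybg3* (0.60), *Prom1* (0.49), *Sox4* (0.47), *Pias3* (0.46) and *Ctbp2* (0.36). *Sox4* was lost in 11 of 12 fits, *Ctbp2* and *Pias3* in 9, *Prom1* in 8 and *Lrit1* in 7, and those of *Sox4* and *Pias3* under both other scalings too. More negative were *Rxrg* (−1.12), *Cltb* (−1.05), *Aqp4* (−0.95), *Cldn5* (−0.70), *Eng* (−0.68), *Rgs9bp* (−0.66), *Nebl* (−0.57), *Rgs5* (−0.56), *Calb1* (−0.46), *Col4a2* (−0.45), *Col4a1* (−0.41), *Sncg* (−0.39) and *Car2* (−0.36). *Rxrg*, *Cltb* and *Col4a2* passed without each library, and *Eng* and *Calb1* were lost in 10 of 12 fits.

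Against *E168d2neo/+*, more positive were *Obox6* (3.23), *Col16a1* (2.28), *Gm12802* (1.75), *Gm16197* (1.61) and *2010001M09Rik* (1.58), and more negative *Mypn* (−1.66), *Hk2* (−1.44), *Gm11398* (−1.34), *Cd93* (−1.14) and *Faim* (−1.02). *Obox6*, *Col16a1*, *Gm12802*, *Gm16197* and *Cd93* passed without each library, and the others were lost in 7 to 9 of 12 fits. *Obox6* was under 5 CPM in all *E168d2/+* libraries. Its value rests on its fall in *E168d2neo/+*, through whose P10 libraries alone it was tested.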

How the results depend on the processing

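The count of genes that changed with age in *E168d2/+*, 767, lay between 676 and 837 under all alternatives run, and between 702 and 835 without each library in turn. The WT count of 1078 lay between 942 and 1151. The counts of genes whose age change differed between genotypes were less stable. Against WT, 443 became 288 in limma without a variance trend, 156 to 894 without each library in turn and 1670 without both P21 replicate B and P10 replicate C, an alternative chosen after seeing the data. Against *E168d2neo/+*, 135 became 22 to 829 and 1036. Centring on medians turned the WT split from 289 more positive and 154 more negative to 183 and 259, and quantile normalization to 222 and 212. The cause was not tested. Among values of named genes past the FDR, the age changes of *mt-Nd4* and *mt-Nd5*, under 2-fold, changed sign under quantile normalization. Genes that did not pass could also do so: *Mef2c* went from 0.27 to −0.30 without P21 replicate B.

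For the pairing of replicate letters, a block gave 769 genes for *E168d2/+* age, 1079 for WT, 359 and 67 for the differences from WT and *E168d2neo/+*, and 214 and 209 for *E168d2/+* against WT at P10 and P21. Deviations of *E168d2/+* libraries with the same letter correlated at −0.113 (A), −0.0317 (B) and −0.0516 (C) between ages, so no pairing by letter was seen there. These correlations cannot show whether a letter marks a batch shared across genotypes of the same age, since they use *E168d2/+* alone. DESeq2 and edgeR were not run, since the deposited values are CPM, and voom on estimated reads, also chosen after seeing the data, gave 777 genes.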

Other observations

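Genes of the circadian clock rose with age in 7 of 15 tested in *E168d2/+*, with 0 falls and a median log2 change of 0.73, against 6 of 15 in WT with a median of 0.74. *Per2*, a repressor of the clock, was at 15.5, 15.6 and 12.3 CPM in P10 replicates A, B and C and at 56.7, 58.8 and 53.4 CPM at P21, a log2 change of 1.96 (limma, FDR 6.3e-07) beside 1.85 in WT. *Hlf* (1.78), *Per1* (1.70), *Nr1d1* (1.68), *Dbp* (1.35), *Bhlhe41* (1.11) and *Per3* (1.01) rose too, and *Per3* was at 0.86 without P10 replicate C. The hour at which retinas were taken is not given in the sources used here.

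Immediate early genes rose in 3 of 6 tested, with a median of 1.07, against 4 of 6 in WT with 1.39. *Fos* went from 5.26, 4.98 and 3.09 CPM to 21.1, 20.2 and 19.2 CPM (2.19, FDR 8.5e-06), and *Egr1* (2.08) and *Nr4a1* (1.35) rose as well. In *Fos* and *Egr1* P10 replicate C was the lowest library.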
